A study of Homo sapiens with 6 samples.

Results

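The 8 genes described here encode core parts of the death receptor pathway of apoptosis: the receptors FAS, TNFRSF10A and TNFRSF10B, the ligand TNFSF10 (TRAIL), the initiator caspase CASP8, and the inhibitor of apoptosis proteins (IAPs) XIAP, BIRC2 and BIRC3. They were taken by symbol from the 60612 Ensembl gene identifiers with a deposited count, and all 8 were found. RNA was sequenced from SKBR3, a mammary epithelial breast cancer cell line with amplified HER2, in 3 untreated libraries (parental) and in 3 libraries of SKBR3 kept for 30 weeks under an increasing dose of the HER2 antibody trastuzumab (trastuzumab, titled HR by the submitters). The study asks which genes change in expression as resistance to trastuzumab forms. The labels do not say whether the drug was present at harvest, whether the treated cells were a clone or a pool, or whether replicates were separate cultures, so p-values speak only of the spread among these samples, and that spread may be technical.

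Death receptors sit in the plasma membrane and carry a cytoplasmic death domain. When TRAIL binds TNFRSF10A or TNFRSF10B, or FAS ligand binds FAS, the adaptor FADD recruits CASP8, which activates itself and then cleaves effector caspases. IAPs hold this pathway back: XIAP binds and blocks caspases directly, whereas BIRC2 and BIRC3 (cIAP1 and cIAP2) are ubiquitin ligases that act at TNF receptor complexes and keep the kinase of the noncanonical NF-kB pathway at a low level. BIRC3 is itself a known target gene of NF-kB.

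Libraries held 71015138 to 82857810 counts. The epithelial markers KRT8, KRT18, KRT19, KRT7 and EPCAM were abundant in every library (5 of 5, summed level 12083 to 13518 CPM in parental and 12235 to 13537 CPM in trastuzumab libraries). The 5 immune markers summed to 1.13 to 1.55 CPM in parental and 1.72 to 1.81 CPM in trastuzumab libraries, with CD2 at 0 in all 6. The 5 fibroblast markers summed to 8.35 to 15.9 and 4.63 to 8.64 CPM, and the 4 endothelial markers to 28.6 to 31.7 and 79.0 to 86.0 CPM. CDH5 made up most of the last sum, while PECAM1 stayed at or under 0.224 CPM and KDR at or under 0.243 CPM. The part of these markers in the results was not tested.

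Levels are in CPM, counts relative to the scaled library total, which compare libraries for 1 gene. Levels of different genes are compared only in FPKM, which the authors scaled by gene length. Fold changes are log2 values of trastuzumab minus parental with their standard error (SE), from edgeR's quasi-likelihood test, and a gene is called changed at a Benjamini-Hochberg adjusted p under 0.05 over all tested genes. Across 13569 tested protein-coding genes the log2 fold change went with the GC content of transcripts (Spearman rho 0.55) and against exonic length (rho -0.29). These are correlations across genes, which are not independent replicates. A second fit with this trend removed from each library is called the corrected fit.

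The TRAIL receptors and CASP8 were present at similar levels in both groups, BIRC2 and XIAP were lower under trastuzumab, and BIRC3 and the scarce TNFSF10 were higher. BIRC2 fell 1.86-fold and XIAP 1.31-fold, while BIRC3 rose 1.97-fold from a low level. The call of XIAP was lost in the corrected fit (-0.07, adjusted p = 0.453). Of the 7 genes that passed the filter on low counts, 2 rose, 2 fell and 3 did not pass the test, where 49.3% of all 17854 tested genes passed, 23.9% higher and 25.4% lower. In the corrected fit 3 rose (BIRC3, TNFSF10 and CASP8), 2 fell (BIRC2 and TNFRSF10B) and 2 did not pass (XIAP and TNFRSF10A). There 38.4% of all genes passed, 19.7% higher and 18.7% lower. The groups did not overlap for 4 of the 7, against 57.5% of all tested genes. FAS was the gene left out by the filter, and TNFSF10 met it only through the trastuzumab libraries. The share of changed members is thus near that of all genes without the correction and above it in the corrected fit. With 7 genes neither share is read as a result, and the results below concern single genes. In such bulk samples, fewer cells that express a gene and less RNA per cell cannot be told apart.

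**Figure D1:**
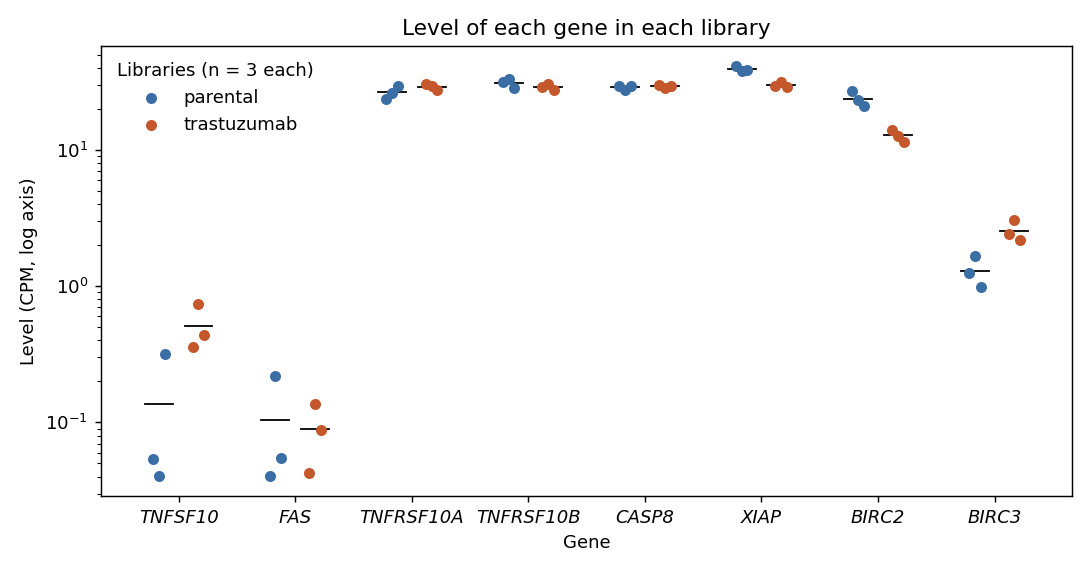
Level of the 8 genes in CPM on a log axis, with 1 point per library (3 parental, 3 trastuzumab) and the group mean as a bar. BIRC2 and XIAP lie lower and BIRC3 and TNFSF10 higher in all trastuzumab libraries, while TNFRSF10A, TNFRSF10B, CASP8 and FAS overlap between groups.

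The order of levels per length put both TRAIL receptors first. In parental libraries TNFRSF10A had 8.15 ± 0.805 FPKM (SD, n = 3), TNFRSF10B 5.59 ± 0.464, BIRC2 4.74 ± 0.653, XIAP 3.93 ± 0.173 and CASP8 3.59 ± 0.122 FPKM. BIRC3 followed far below at 0.157 ± 0.0404 FPKM, with TNFSF10 listed at 0.01, 0.01 and 0.08 FPKM and FAS at 0.01, 0.03 and 0.01 FPKM. Ranges of neighbours in this order overlapped for TNFRSF10B and BIRC2, for BIRC2 and XIAP, and for TNFSF10 and FAS. Under trastuzumab the order became TNFRSF10A (8.51 ± 0.457 FPKM), TNFRSF10B (4.96 ± 0.241), CASP8 (3.48 ± 0.085), XIAP (2.86 ± 0.117), BIRC2 (2.42 ± 0.245) and BIRC3 (0.293 ± 0.0513 FPKM). TNFSF10, listed at 0.09, 0.18 and 0.10 FPKM, and FAS, listed at 0.01, 0.02 and 0.01 FPKM, again came last, and no neighbours overlapped. BIRC2 thus went from rank 3 to rank 5 and CASP8 from rank 5 to rank 3.

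TNFSF10, the TRAIL ligand, was close to the detection limit. It lies on chromosome 3 at 172505508 to 172523507 (hg38, minus strand). Parental replicates 1 to 3 held 4, 3 and 23 counts (0.0541, 0.0407 and 0.316 CPM) and trastuzumab replicates 25, 60 and 35 counts (0.357, 0.744 and 0.436 CPM). The lowest trastuzumab library lay just above the highest parental library, which itself lay far above the other two. Its log2 fold change was 1.89 ± 0.759 (SE), with an adjusted p of 0.0488 and a 95% interval of 0.28 to 3.50. The call was lost with library totals as the only scaling (adjusted p = 0.0559), without parental replicate 1 (0.160) or 2 (0.147), and without trastuzumab replicate 1 (0.0603), 2 (0.230) or 3 (0.0850). Without parental replicate 3 the log2 fold change became 3.39.

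FAS, the receptor for FAS ligand, was barely detected in either group. It lies on chromosome 10 at 88990582 to 89015785 (hg38, plus strand). Its counts were 3, 16 and 4 in parental and 3, 11 and 7 in trastuzumab libraries, or 0.0406 to 0.217 and 0.0428 to 0.136 CPM. The parental range enclosed the trastuzumab range, and the lowest libraries held no more than the 3 counts that a count of 0 allows. ACTA2, which overlaps FAS on the other strand, had more counts than FAS on average, and the strand setting of the counting is not given in the sources used here. FAS did not meet the filter on low counts, and at this depth no direction can be read from these values.

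TNFRSF10A, a TRAIL receptor with a full death domain, had 23.8, 26.3 and 29.5 CPM in parental and 30.4, 29.2 and 27.4 CPM in trastuzumab libraries. The groups overlapped, with a log2 fold change of 0.13 ± 0.0856 (adjusted p = 0.238) and a 95% interval of 0.964 to 1.24 on the linear fold scale. TNFRSF10B, the other TRAIL receptor that signals death, had 31.3, 33.3 and 28.7 CPM in parental and 28.8, 30.5 and 27.7 CPM in trastuzumab libraries. These groups overlapped too (-0.10 ± 0.0776, adjusted p = 0.31), and the interval ran from 0.831 to 1.04. In the corrected fit TNFRSF10B was lower (-0.25, adjusted p = 0.0119), while TNFRSF10A did not pass (-0.08, adjusted p = 0.426). Both intervals exclude a change of 1.5-fold in either direction, with or without the correction.

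The TRAIL receptor genes lie in 1 cluster on chromosome 8 of hg38, with the decoy receptor genes TNFRSF10C and TNFRSF10D between them, at 23020133 to 23069179 (TNFRSF10B) and 23190452 to 23225126 (TNFRSF10A) in GENCODE 29, both on the minus strand. TNFRSF10B overlaps RHOBTB2, and TNFRSF10A overlaps the noncoding TNFRSF10A-AS1 and TNFRSF10A-DT, each on the other strand, so their counts are uncertain to that extent. The decoy receptors, which bind TRAIL without a working death domain, had few counts. TNFRSF10C overlaps a tested gene without a symbol on the same strand with a higher mean level, so its own count is uncertain. TNFRSF10C had 0, 9 and 10 counts in parental and 0, 13 and 23 in trastuzumab libraries (log2 fold change 0.79 ± 1.21, adjusted p = 0.64). TNFRSF10D had 10, 4 and 0 counts in parental libraries and 0 in all 3 trastuzumab libraries.

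CASP8, which starts the cascade at the receptor, had nearly the same level in all 6 libraries. Parental libraries held 29.6, 27.7 and 29.5 CPM and trastuzumab libraries 30.02, 28.7 and 29.5 CPM. The parental range enclosed 2 of the 3 trastuzumab values, and the log2 fold change was 0.02 ± 0.0709 (adjusted p = 0.836, fold interval 0.915 to 1.13). The corrected fit instead gave a rise of 0.42 (adjusted p = 7.94e-05). Transcripts of CASP8 have a GC content of 44.1% and an exonic length of 7243 bases. Whether CASP8 changed therefore depends on the correction.

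CASP8 lies on chromosome 2 at 201233443 to 201287711 (hg38, plus strand), 56756 bases beyond its catalytically inactive relative CFLAR (c-FLIP), which competes with CASP8 for the receptor complex. CFLAR rose from 55.6 ± 0.696 to 66.5 ± 2.14 CPM (log2 fold change 0.26 ± 0.0553, adjusted p = 0.00088), and more in the corrected fit (0.72, adjusted p = 4.39e-09). TRAK2, the next tested gene beyond CASP8 above 1 CPM and a transport adaptor of mitochondria, fell from 32.3 ± 0.313 to 16.7 ± 0.695 CPM. CASP10, the related initiator caspase between CFLAR and CASP8, did not pass (0.90, adjusted p = 0.29).

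XIAP, the IAP that inhibits caspases by direct binding, was lower in every trastuzumab library. It had 41.0, 38.1 and 38.7 CPM in parental and 29.7, 31.4 and 28.98 CPM in trastuzumab libraries, with a clear gap between the groups. The log2 fold change was -0.39 ± 0.0704 (adjusted p = 0.000207). In the corrected fit this call was lost (-0.07, adjusted p = 0.453). XIAP lies on chromosome X at 123859724 to 123913979 (hg38, plus strand) with an exonic length of 9025 bases, the longest of the 8 genes. Its nearest tested neighbours above 1 CPM, THOC2 and STAG2, fell as well (-0.83 and -0.73, adjusted p = 4.38e-06 and 2.09e-07), and stood at -0.15 (adjusted p = 0.169) and -0.21 (0.00467) in the corrected fit.

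BIRC2, a ubiquitin ligase of the IAP family, was also lower in every trastuzumab library. It went from 27.1, 23.4 and 21.0 CPM in parental to 14.1, 12.8 and 11.5 CPM in trastuzumab libraries, so the lowest parental library stood well above the highest trastuzumab library. The log2 fold change was -0.90 ± 0.107 (adjusted p = 2.81e-06), and the corrected fit kept the call at a smaller size (-0.53, adjusted p = 0.000193). BIRC3, its close relative, moved the other way, from 1.26, 1.66 and 0.99 CPM to 2.41, 3.07 and 2.19 CPM, again without overlap. Its counts were 93, 122 and 72 in parental and 169, 248 and 176 in trastuzumab libraries. The log2 fold change was 0.98 ± 0.262 (adjusted p = 0.00507), and 1.56 in the corrected fit (adjusted p = 0.000196).

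**Figure D2:**
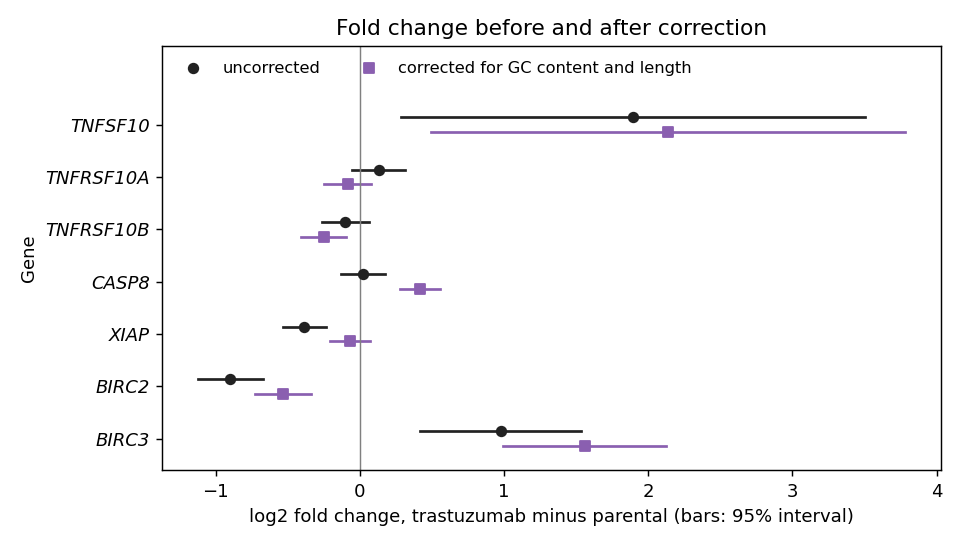
Log2 fold change of the 7 tested genes with its 95% interval, without correction (circles) and corrected for GC content and length (squares). BIRC2 stays below 0 and BIRC3 and TNFSF10 above 0 in both fits, whereas XIAP reaches 0 and CASP8 leaves it in the corrected fit.

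BIRC2 and BIRC3 are tandem paralogs on chromosome 11 of hg38, both on the plus strand. BIRC3 occupies 102317450 to 102339403 and BIRC2 starts 7808 bases further on, at 102347211, and ends at 102378670. Reads that fit both paralogs, if any, could have been split between them by the counting. The next tested genes above 1 CPM on either side, the transcriptional coactivator gene YAP1 and the membrane protein gene TMEM123, fell (log2 fold change -0.61 and -0.38, adjusted p = 5.49e-08 and 8.88e-06). BIRC3 was the only riser among these 4 genes. In the corrected fit TMEM123 stood at -0.02 (adjusted p = 0.71) and YAP1 at -0.38 (1.76e-06).

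Because these neighbouring paralogs moved apart, their promoters are shown, with that of TNFSF10 as the remaining riser, from 250 bases before to 50 bases after the RefSeq start site (GRCh38.p14, sense strand). Capitals mark letters that match the kappaB consensus bound by NF-kB (BIRC3) or the interferon response element, here GAAA followed by any 2 bases and GAAA again (TNFSF10). Both strands were searched and no matches overlapped. BIRC3 spans chr11:102317234-102317533, the first BIRC2 window chr11:102346964-102347263, and TNFSF10 chr3:172523381-172523680 on the minus strand.
BIRC3: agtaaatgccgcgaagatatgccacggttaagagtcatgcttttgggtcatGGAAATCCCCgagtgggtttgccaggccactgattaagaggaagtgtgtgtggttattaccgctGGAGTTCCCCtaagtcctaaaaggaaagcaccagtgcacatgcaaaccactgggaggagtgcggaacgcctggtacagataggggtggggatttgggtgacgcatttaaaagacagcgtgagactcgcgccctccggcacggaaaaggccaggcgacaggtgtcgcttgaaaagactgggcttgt
BIRC2: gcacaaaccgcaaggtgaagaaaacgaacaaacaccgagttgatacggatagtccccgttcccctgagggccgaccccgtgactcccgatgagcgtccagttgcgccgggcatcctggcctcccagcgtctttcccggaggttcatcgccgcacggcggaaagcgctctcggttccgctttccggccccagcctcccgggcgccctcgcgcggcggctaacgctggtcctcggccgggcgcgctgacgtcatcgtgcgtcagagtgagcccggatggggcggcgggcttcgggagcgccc
TNFSF10: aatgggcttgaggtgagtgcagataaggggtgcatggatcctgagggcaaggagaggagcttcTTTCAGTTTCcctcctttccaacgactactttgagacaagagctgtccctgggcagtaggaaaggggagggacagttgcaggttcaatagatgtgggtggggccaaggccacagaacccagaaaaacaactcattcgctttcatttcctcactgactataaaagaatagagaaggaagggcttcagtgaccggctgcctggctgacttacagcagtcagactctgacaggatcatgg

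The BIRC3 window held 2 kappaB matches, both on the minus strand, beginning 199 and 135 bases before the start site. Among all 35116 promoter windows of this length, 5.91% held at least 1. Neither of the 2 BIRC2 windows nor any of the 3 XIAP windows held a match to either motif. Windows of TNFRSF10A and TNFRSF10B, both on chromosome 8, were not searched. TNFSF10 had 1 match to the interferon response element, beginning 187 bases before the start site, as had 1 of 3 CASP8 windows, 3 bases before its start site, where 3.57% of all windows have one. In 1 of the 3 FAS windows a kappaB match began 157 bases before the start site. These matches describe letters and do not show binding.

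The balance between the IAPs was compared per length. The ratio of BIRC2 to BIRC3 FPKM was 36.1, 23.4 and 34.3 in parental and 9.54, 6.89 and 8.72 in trastuzumab libraries. The groups did not overlap, and BIRC2 remained the more abundant per length in every library (ratio 31.3 ± 6.92 against 8.38 ± 1.36). The FPKM of BIRC3 are deposited to 2 decimals, which limits this ratio. The FPKM of XIAP, BIRC2 and BIRC3 summed to 9.70, 8.71 and 8.06 in parental and 5.79, 5.75 and 5.19 in trastuzumab libraries. Divided by the FPKM of CASP8, this sum went from 2.46 ± 0.205 to 1.60 ± 0.104. Each of these 3 comparisons had a two-sided exact permutation p of 0.1, the smallest that 3 against 3 libraries allow. They combine members already seen to move, so their lack of overlap largely follows from the values above and is no further support. For CASP8 over XIAP (0.915 ± 0.0285 against 1.22 ± 0.0713) the same test also gave 0.1. This ratio largely follows from the fall of XIAP above and is no further support either. For TNFRSF10A over TNFRSF10B (1.47 ± 0.253 against 1.72 ± 0.0878) the groups overlapped and the permutation test gave 0.3. FPKM carry no correction for GC content, and the call of XIAP was lost in the fit that corrects GC content and exonic length together.

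**Figure D3:**
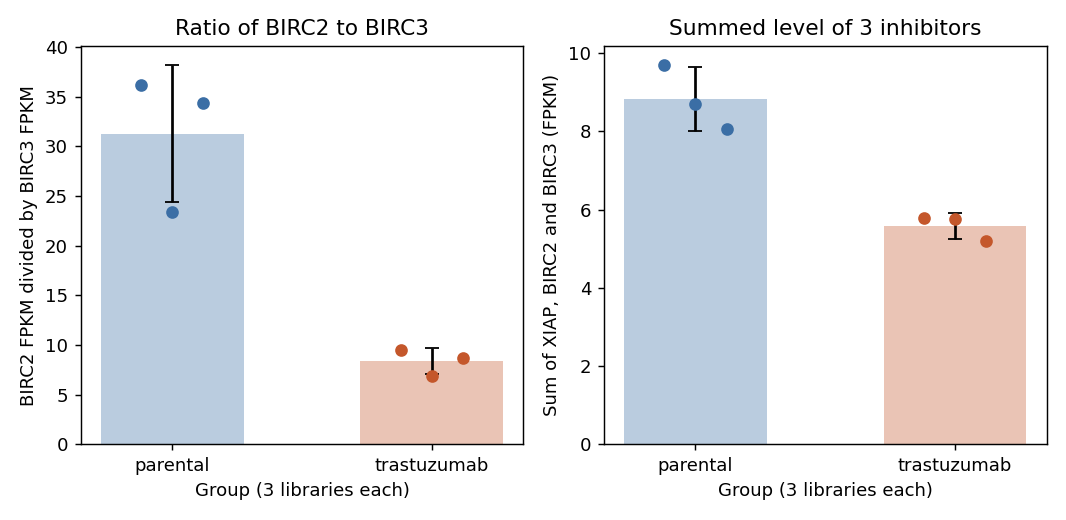
Left, BIRC2 FPKM divided by BIRC3 FPKM. Right, FPKM of XIAP, BIRC2 and BIRC3 added together. Points are libraries, bars the mean of 3 and whiskers the SD. Every trastuzumab library lies below every parental library in both panels.

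Other genes of the pathway were taken from 8 lists that hold 89 genes besides the 8 above. Among the 73 tested were 34 risers, 9 fallers and 30 genes not past the test, and their median log2 fold change was 0.27, where 23.9% of all tested genes rose and 25.4% fell. The corrected fit had 27 risers, 10 fallers and 36 not past the test (median 0.16), where 19.7% of all genes rose and 18.7% fell. These shares over all genes are the background for each list below. The risers of both fits include TRAF1 and GSDMA, which met the filter on low counts only through the trastuzumab libraries. Among the fallers of both fits, RIPK3 and CASP14 met it only through the parental libraries. List genes named outside the rule for named genes, such as CFLAR, CASP10, TNFSF15, TNFRSF1A, DIABLO and BIRC5, were chosen after their values were seen. Over all tested genes the median was near 0 (-0.0057 without and -0.0041 with the correction).

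**Figure D4:**
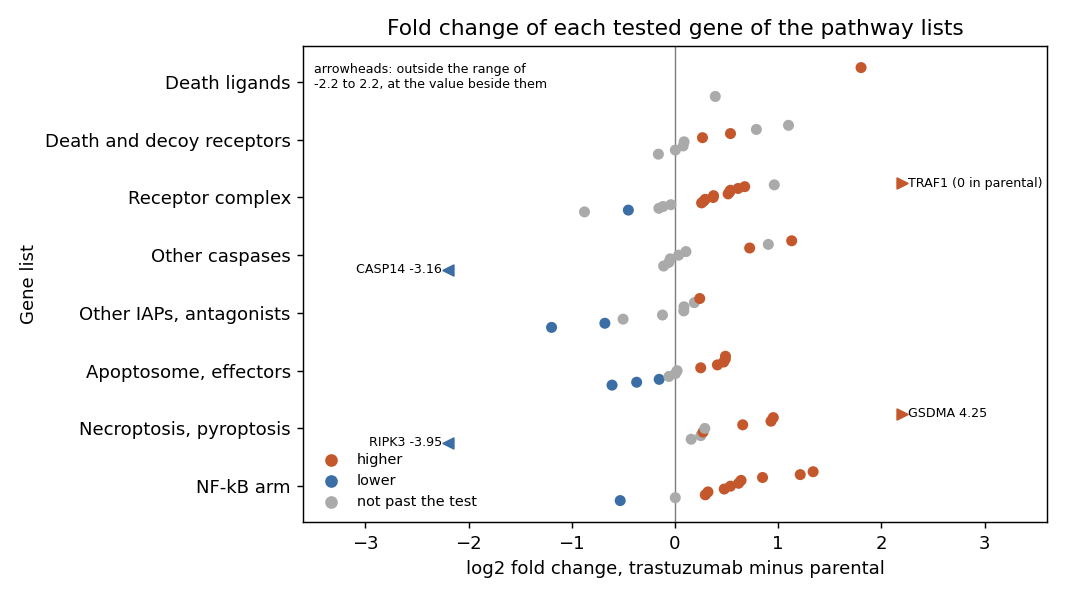
Log2 fold change of each tested gene of the 8 pathway lists without correction, coloured by the edgeR call at an adjusted p under 0.05. Genes of the receptor complex and the NF-kB arm lie mostly right of 0, and arrowheads mark 4 genes outside the range drawn for the points (TRAF1, GSDMA, CASP14 and RIPK3).

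Among 7 death ligands other than TRAIL, 2 were tested. TNF, the inflammatory cytokine that signals through death domain receptors, rose from 1.04, 0.435 and 0.756 to 1.86, 2.91 and 3.03 CPM (log2 fold change 1.80 ± 0.327, adjusted p = 0.000202). TNFSF15 did not pass (0.39, adjusted p = 0.119), although it did in the corrected fit (0.87, adjusted p = 0.0016). FASLG had 4 counts in 1 parental library and 0 elsewhere. LTB, a ligand of LTBR named here after its values were seen, had 0 counts in all parental libraries and 20, 4 and 20 under trastuzumab, at least 14.3-fold higher against a floor of 3 counts over the parental group.

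The list of death, decoy and related receptors had 8 tested genes, with 2 risers, no faller and 6 not past the test (median 0.18). In the corrected fit it had 1 riser and 2 fallers. Both risers of the uncorrected fit, LTBR and TNFRSF12A, are related receptors and not death or decoy receptors. LTBR, the lymphotoxin receptor that feeds the noncanonical NF-kB pathway, rose from 138 ± 2.77 to 201 ± 8.06 CPM (0.54 ± 0.0464, adjusted p = 8.5e-08). TNFRSF12A, the receptor of the cytokine TWEAK, rose from 93.1 ± 3.53 to 112 ± 6.71 CPM (0.27 ± 0.0546, adjusted p = 0.000597), but was lower in the corrected fit (-0.20, adjusted p = 0.000481). TNFRSF1A, the main TNF receptor, did not pass (0.004 ± 0.0491, adjusted p = 0.96), with an interval of -0.10 to 0.11, but was lower in the corrected fit (-0.25, adjusted p = 6.32e-05). LTBR overlaps the abundant SCNN1A on the other strand, and SHARPIN and HTRA2 overlap the more abundant MAF1 and AUP1 in the same way.

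Within the receptor complex, 11 of 17 tested genes rose, 1 fell and 5 missed the threshold (median 0.37), where 23.9% of all genes rose and 25.4% fell. In the corrected fit 8 rose and none fell (median 0.16), against 19.7% and 18.7% of all genes. RBCK1 and SHARPIN, subunits of the linear ubiquitin ligase that marks TNF receptor complexes, rose from 128 ± 7.57 to 196 ± 7.29 CPM and from 47.9 ± 2.46 to 69.1 ± 3.48 CPM. SHARPIN lost its call in the corrected fit (0.12, adjusted p = 0.0581). TNFAIP3, a ubiquitin-editing brake on NF-kB, rose from 6.65 ± 0.847 to 10.6 ± 0.985 CPM and the death domain adaptor CRADD from 7.16 ± 0.74 to 10.4 ± 0.96 CPM. ITCH, a ubiquitin ligase and the only gene of this list that fell, is named after its values were seen (-0.45, adjusted p = 9.54e-06, and -0.05, adjusted p = 0.528, in the corrected fit).

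Partners that bind the members directly are named here after their values were seen. FADD, the bridge from receptor to CASP8, rose from 41.8 ± 1.68 to 54.0 ± 3.99 CPM (0.37 ± 0.0686, adjusted p = 0.000249), a call lost in the corrected fit (-0.06, adjusted p = 0.463). TRAF2, which carries BIRC2 and BIRC3 to receptors, rose from 53.6 ± 3.74 to 69.5 ± 1.58 CPM, also lost there (0.01, adjusted p = 0.903). TRAF1, a TRAF2 partner, had 0 counts in all 3 parental libraries and 36, 31 and 24 counts under trastuzumab, at least 29.3-fold higher against the same floor. TRAF1 met the filter on low counts only through the trastuzumab libraries, and is counted among the risers of the receptor complex in both fits. TRAF3, which joins BIRC2 and BIRC3 to their kinase substrate, rose in both fits (0.29 and 0.33, adjusted p = 0.000295 and 3.04e-05).

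Among the other caspases 2 of 9 tested rose, 1 fell and 6 missed the threshold (median 0.03). CASP4, an inflammatory caspase that senses bacterial lipopolysaccharide, rose from 8.57 ± 0.65 to 18.8 ± 1.29 CPM (1.13 ± 0.103, adjusted p = 1.57e-07). CASP9, the initiator of the mitochondrial route, rose from 6.63 ± 0.192 to 10.9 ± 0.736 CPM (0.72 ± 0.118, adjusted p = 7.35e-05). The gene that fell was CASP14, a caspase of skin differentiation, from 0.744 ± 0.112 to 0.0812 ± 0.0217 CPM, also named after its values were seen.

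Other IAPs and their antagonists gave 1 rise, 2 falls and 5 genes not past the test of 8 tested (median -0.02). BIRC6, a giant ubiquitin ligase of the IAP family, fell from 129 ± 9.58 to 56.3 ± 5.57 CPM (-1.20 ± 0.0742, adjusted p = 2.03e-08), and by less in the corrected fit (-0.48, adjusted p = 4.36e-07). ARIH1, a ubiquitin ligase, fell from 60.2 ± 2.32 to 37.6 ± 2.01 CPM (-0.68 ± 0.065, adjusted p = 2.63e-07; corrected -0.17, adjusted p = 0.0247). HTRA2, a mitochondrial protease that binds and cleaves IAPs, rose from 45.1 ± 1.34 to 53.2 ± 3.16 CPM (0.24 ± 0.0647, adjusted p = 0.00521), a call and direction lost in the corrected fit (-0.08, adjusted p = 0.275). DIABLO (SMAC), the other mitochondrial IAP antagonist, just missed the threshold (0.19 ± 0.0758, adjusted p = 0.0504) and passed it in the corrected fit (0.31, adjusted p = 0.0023). BIRC5 (survivin), the mitotic IAP, did not pass at 108 ± 3.65 and 115 ± 6.81 CPM.

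In the apoptosome and effector list, 11 genes were tested, with 5 risers, 3 fallers and 3 not past the test (median 0.02), and 2 rose and 4 fell in the corrected fit. CYCS, cytochrome c, fell from 436 ± 21.8 to 286 ± 15.7 CPM (-0.61 ± 0.0502, adjusted p = 5.21e-08). BID, which CASP8 cleaves to pass the death signal to mitochondria, rose from 33.9 ± 2.12 to 47.6 ± 2.64 CPM (0.49 ± 0.0723, adjusted p = 2.85e-05). PEA15, a death effector domain protein that binds FADD and CASP8, rose from 299.8 ± 18.3 to 416 ± 15.5 CPM (0.47 ± 0.0495, adjusted p = 7.18e-07). DEDD2, which also carries a death effector domain, rose from 27.3 ± 2.21 to 38.3 ± 2.26 CPM, a call lost in the corrected fit (0.07, adjusted p = 0.473).

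Genes of necroptosis and pyroptosis, the lytic forms of cell death, gave 9 tested members, with 5 risers, 1 faller and 3 not past the test (median 0.29). GSDMA, 1 of these risers, met the filter on low counts only through the trastuzumab libraries, and the faller RIPK3 only through the parental libraries. RIPK3, the kinase that drives necroptosis when CASP8 is inactive, had 179, 176 and 195 counts in parental libraries and 0, 32 and 6 under trastuzumab (2.42, 2.39 and 2.68 against 0, 0.397 and 0.0748 CPM). All trastuzumab libraries lay far below all parental ones, and the log2 fold change was -3.95 ± 1.06 (adjusted p = 0.0308). That call was lost without any 1 parental replicate (adjusted p = 0.0804, 0.0856 and 0.0703 for replicates 1 to 3), without trastuzumab replicate 3 (0.103) and without a filter on low counts (0.0842), and the fold change became -5.93 without trastuzumab replicate 2. The pore-forming gasdermins GSDMB and GSDMD rose 1.94-fold and 1.58-fold, and the inflammasome sensor NLRP1 rose from 1.83 ± 0.234 to 3.48 ± 0.14 CPM (0.93 ± 0.204, adjusted p = 0.00109).

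The list of the NF-kB arm holds genes of the noncanonical pathway and also the canonical genes NFKBIA, IKBKB and IKBKG, all of which rose. Of its 11 tested genes, 9 rose, 1 fell and 1 missed the threshold (median 0.54), where 23.9% of all genes rose. In the corrected fit 7 rose and none fell (median 0.30), where 19.7% of all genes rose. CD40, a receptor that draws on TRAF3 and the IAPs, rose from 8.44 ± 0.621 to 21.3 ± 1.32 CPM (1.34 ± 0.0997, adjusted p = 1.73e-08). The noncanonical subunits RELB and NFKB2 rose from 12.02 ± 0.458 to 27.9 ± 2.29 CPM and from 62.5 ± 3.81 to 97.4 ± 4.95 CPM, and NFKBIA, the inhibitor induced by NF-kB, from 72.9 ± 5.58 to 131 ± 9.42 CPM. The gene that fell was the kinase CHUK, named after its values were seen (-0.53, adjusted p = 0.000759), which stood at 0.02 in the corrected fit (adjusted p = 0.885). LTBR and TRAF3 count in this list too. The summed immune markers, with CD2 at 0, were also higher under trastuzumab (1.72 to 1.81 against 1.13 to 1.55 CPM), and their part in these rises was not tested.

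By likeness of pattern over the 6 libraries (Pearson r of log2 CPM), the tested protein-coding genes nearest to BIRC2 were EDRF1 and GSTM3 (r = 0.999 for both), and those nearest to BIRC3 were SULT1A1 and OXLD1 (r = 0.994 and 0.993). VPS37A and WBP11 were nearest to XIAP (r = 1.00 and 0.998), and PLEKHF1 and RNF19B to TNFSF10 (r = 0.997 for both). For TNFRSF10A the nearest were APTX and PRDX2, for TNFRSF10B PISD and ZNF862, for CASP8 TADA2A and TBC1D20, and for FAS S100A2 and CACNB1, with r from 0.966 to 0.993. Each r rests on 6 values picked as the highest of 11665 or 11666 genes, and the points share the group split and the depth of each library.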

How the data were processed

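For each of the 6 libraries the authors deposited raw counts per Ensembl gene, as whole numbers, and FPKM values to 2 decimals for 33686 genes. The submitters' processing notes name STAR 2.4.2a and hg38. Nothing in the sources used here names the counting program, strand setting or annotation. Per the labels' protocols, libraries were made from total RNA with a directional NEBNext Ultra II kit.

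Symbols came from a gene name reference and positions, GC content (mean over transcripts) and exonic length from GENCODE 29. The count test was edgeR's robust quasi-likelihood F test (edgeR 4.0.16, R 4.3.3) of group alone over the 17854 genes that filterByExpr kept, with TMM scaling. The SE is the log2 fold change divided by the root of F. The corrected fit used natural splines with 5 degrees of freedom on GC content and length as offsets, and also removes real changes that go with either. The GC trend and the group cannot be told apart. Depth was 71015138 to 82857810 counts, so a count of 0 allows up to 0.0372 to 0.0428 CPM (3 counts, counting error only). Patterns of likeness used log2(CPM + 0.1).

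The members and lists were chosen with earlier results of these data known. From each list, up to 4 changed genes of at least 1 CPM in the higher group with the largest change were named, which gave 24 genes. Some other list genes are not reported here by name. Same-numbered libraries did not deviate together. Alternatives were other scalings, filters, DESeq2 1.42.0, limma 3.58.1, FPKM with a pseudocount of 1 or 0.1, a replicate block and leaving out each library.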

Additional observations from a re-analysis of the deposited data

How the results depend on the processing

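The fall of BIRC2 and the rise of BIRC3 kept their direction under all alternatives that tested them, and their calls under all but log2(FPKM + 1) without a filter, where BIRC3 had 0.16 (adjusted p = 0.0681). XIAP kept its call except with GC content and length removed (-0.0704, and -0.0720 with the replicate block as well). TNFSF10 lost its call at an adjusted p under 0.01 (1.89), with library totals alone (1.84) and on log2(FPKM + 1) without a filter (0.12), and its value without 1 library ran from 1.46 to 3.39. Members changed numbered 2 rather than 4 in the 3 fits on FPKM, where 0 rose rather than 2 (limma; at an unadjusted p under 0.05, 1 without and 0 with the FPKM filter; DESeq2 on counts gave 2), and 1 rose at the stricter threshold, with library totals alone and with at least 1 CPM in each group. Without 1 library 3 to 4 changed and 1 to 2 rose. The FPKM filter and the 1 CPM filter leave TNFSF10 untested, and the FPKM filter BIRC3 too. The remaining causes were not tested.

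Members past no threshold changed sign or gained a call: CASP8 stood at -0.0329 with library totals alone, at -0.0460 on log2(FPKM + 0.1), at -0.0369 on log2(FPKM + 1) with or without a filter, at -0.0085 to 0.0412 without 1 library, and at 0.42 with GC content and length removed, with or without the replicate block. With that correction TNFRSF10A stood at -0.0850 (-0.0824 with the block) and TNFRSF10B at -0.25 (-0.25 with the block). Also reversed by it were TNFRSF12A (-0.20, and -0.20 with the block) and HTRA2 (-0.0805, and -0.0814 with the block). The cause was not tested. All genes changed numbered 7882 to 8689 without 1 library, against 8808 with all.

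Parental and trastuzumab libraries share replicate numbers, but deviations from the group means of same-numbered libraries correlated at only -0.03 to 0.04, so the numbers were not taken to pair them. With the replicate block 8653 genes changed, the 4 called members kept their calls (TNFSF10 2.28, adjusted p = 0.043), and RIPK3 lost its call (adjusted p = 0.0591). Of the 24 named list genes, 18 kept call and direction in all alternatives that gave them a value. FAS had a value only without a filter, and depth limits FAS and TNFSF10, which had at most 16 and 60 counts in a library.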

Other observations

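RNF31, the catalytic subunit of the linear ubiquitin ligase and the partner of RBCK1 and SHARPIN, varied widely within both groups. Parental libraries held 16.6, 18.9 and 41.6 CPM, and trastuzumab libraries 26.02, 45.8 and 78.2 CPM (log2 fold change 0.96 ± 0.615, edgeR adjusted p = 0.288). Its groups overlapped, unlike those of its partners. GSDMA, another gasdermin, had at most 0.0541 CPM in parental libraries and 0.528, 0.335 and 0.262 CPM under trastuzumab, and it met the filter on low counts only through the latter. RNF31 overlaps a tested gene without a symbol on the same strand and PSME2 on the other, both with a higher mean level, so its own count is uncertain. These genes were chosen after their values were seen.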
